A study of Homo sapiens with 10 samples.

Results

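The 10 genes described here make, load or use miRNAs, and were taken by name from the long RNA tables of a BEAS-2B study. They are DROSHA and DGCR8 (Microprocessor), XPO5 (export), DICER1 and TARBP2 (Dicer complex), AGO2 (Argonaute), TNRC6A, TNRC6B and TNRC6C (Argonaute partners) and LIN28B (let-7 inhibitor). All 10 were found among the 55771 gene symbols of the tables, and all 10 passed the filter on low counts, at least 1 CPM (counts scaled to the library's size) in at least 2 libraries. BEAS-2B is an established line of human bronchial epithelial cells. It had been grown in LHC9 medium with fetal bovine serum, transfected with a pCMV6 vector that was empty (eV) or carried TAF1C, and kept as stable lines under G418. TAF1C is a subunit of SL1, which recruits RNA polymerase I to ribosomal RNA genes. Long RNA came from 2 eV and 3 TAF1C libraries and small RNA likewise, so each group shares the cell line, the vector backbone and the drug. The labels do not say whether the lines were single clones or the replicates separate cultures, and each p therefore reflects only how far these libraries spread.

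A primary miRNA transcript is cut in the nucleus by Microprocessor, in which DROSHA is the ribonuclease and DGCR8 the RNA-binding partner. XPO5 carries the resulting hairpin to the cytoplasm, where DICER1, aided by TARBP2, cuts off the loop and the duplex is loaded into an Argonaute such as AGO2. The TNRC6 proteins (GW182 family) bind Argonaute and bring in poly(A)-binding protein, deadenylases and decapping factors. LIN28B binds let-7 precursors and blocks their maturation, and let-7 in turn targets LIN28B mRNA.

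Gene counts summed to 22809601 and 28476151 in the eV libraries and to 37533366, 36481548 and 34212883 in the libraries labelled TAF1C. TAF1C mRNA itself measured 63.9 and 77.1 CPM with the empty vector against 63.5, 58.5 and 66.5 CPM in those labelled TAF1C (log2 fold change -0.17 ± 0.13 (SE), edgeR adjusted p = 0.353), so this gene did not set the groups apart and does not bear out the label. Below, "with TAF1C" means the libraries labelled so. The eV libraries stood apart from each other, with an SD of the log2 difference over tested genes of 1.08 against 0.38 to 0.42 among pairs of TAF1C libraries. Summed photoreceptor markers were at 2535 and 1948 CPM with the empty vector and 12.05 to 15.7 CPM with TAF1C, and 14 of 16 fell. The eV libraries did not carry these markers alike: OTX2 and CRX were high in both (300 and 422, and 210 and 359 CPM), while RCVRN was at 253 and 1.06, RP1 at 116 and 6.98 and GUCA1A at 53.9 and 1.90 CPM, all 5 named after their values were seen. Neuronal markers summed to 514 and 437 CPM against 16.2 to 17.1 CPM, with 7 of 12 lower by the test and 4 under the filter. Of those 4, named after their values were seen, STMN2, DCX and GAP43 were at 36.4, 22.7 and 10.2 CPM in eV library 1 but at 0, 0.282 and 0.0705 CPM in eV library 2. Epithelial markers, which define the labelled cell type, summed to 398 and 384 CPM against 1387 to 1502 CPM, with 5 of 12 raised and 2 lowered. Among them KRT5, KRT14 and CDH1, named after their values were seen, stayed at or below 2.95 CPM in every library. The part of these differences in the results below was not tested, and fewer cells of a type cannot be told apart from less RNA per cell.

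Of the 10 genes, TNRC6C fell 51.6-fold, to near the filter minimum, in the libraries labelled TAF1C. DICER1 fell and TARBP2 and DROSHA rose by less than 1.5-fold. The other 6, DGCR8, XPO5, AGO2, TNRC6A, TNRC6B and LIN28B, did not pass edgeR's quasi-likelihood test. The count of 2 raised and 2 lowered stands beside a background in which 15.9% of the 18402 tested genes rose and 22.6% fell, so 4 of 10 is near the share of 38.5% called over all genes. Without any overlap between groups, 2 genes were higher and 6 lower with TAF1C, where 29.8% and 34.4% of all tested genes were. The median log2 fold change was -0.20 for the 10 genes and -0.10 for all tested genes. Between the 2 eV libraries the 10 genes differed by a median of 0.15 on the log2 scale, against 0.48 for all tested genes.

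Scaling by library totals in place of TMM moved the median of all genes from -0.10 to -0.32 and the raised share of called genes from 41.3% to 31.5%. Under it no member rose and 5 fell. Leaving out TAF1C library 1, 2 or 3 left 1 lowered gene and none raised each time. In those fits 2, 1 and 1 of the 10 genes were higher at an unadjusted p under 0.05 (edgeR). Calls over all genes dropped there too, to 1058 of 18114, 1182 of 18243 and 1076 of 18109 tested genes raised. The lowered were 2043, 1960 and 2019, against 2922 raised and 4158 lowered with every library. DESeq2 on all libraries gave 2 raised and 2 lowered of the 10, and 3678 and 4400 of all tested genes. Without eV library 1 the median log2 fold change was -0.28 for the 10 genes and -3e-04 for all tested genes. Without eV library 2 these medians were -0.19 and -0.03. Fits with a single eV library take their spread from the TAF1C libraries alone.

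**Figure D1:**
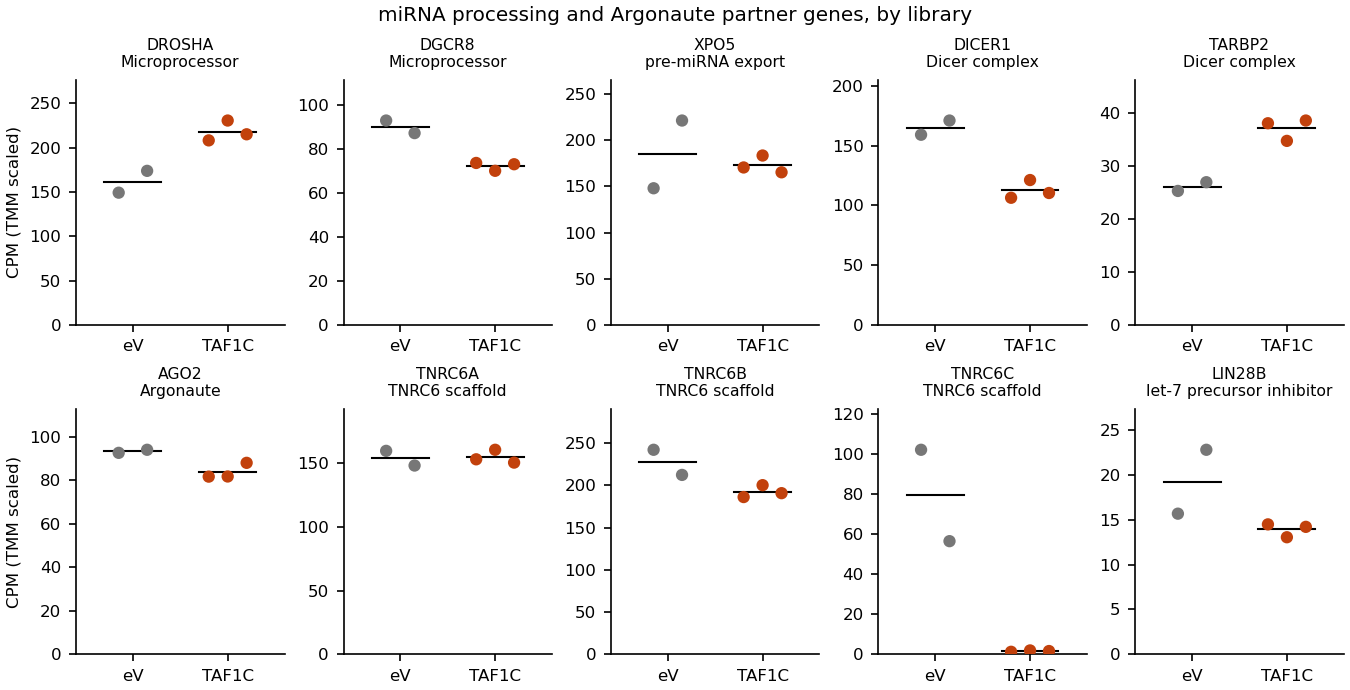
Normalised read count (CPM, linear axis from 0, TMM scaled) of the 10 genes in each long RNA library, 2 with empty vector (grey) and 3 labelled TAF1C (orange), with a bar at each group mean. TNRC6C lies between 1.19 and 1.87 CPM in the TAF1C libraries and at 56.6 and 102 CPM with the empty vector, while XPO5 and TNRC6A overlap between groups.

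DROSHA (ENSG00000113360) makes the nuclear cut that releases the precursor hairpin. It was counted at 149 and 174 CPM with the empty vector and at 208, 231 and 215 CPM with TAF1C. All 3 TAF1C libraries lay above both eV libraries. The means were 161.5 ± 17.4 CPM (SD, n = 2) and 217.9 ± 11.5 CPM (SD, n = 3), a 1.35-fold rise (log2 fold change 0.43 ± 0.13 (SE), edgeR adjusted p = 0.0432). Over 11 other settings the log2 fold change stayed between 0.23 and 0.52, but the adjusted p ran from 2.78e-06 to 0.280 and was under the threshold in 5. It was lost without TAF1C library 1, 2 or 3 (adjusted p = 0.132, 0.149 and 0.147), with library totals (adjusted p = 0.0796), without the filter (adjusted p = 0.241) and in 1 further setting.

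DGCR8 (ENSG00000128191), whose protein recognises the base of the primary hairpin, went the other way. Its normalised read count was 93.0 and 87.2 CPM with the empty vector and 73.7, 70.1 and 73.1 CPM with TAF1C. The groups did not overlap, yet the difference just missed the threshold (log2 fold change -0.32 ± 0.10 (SE), edgeR adjusted p = 0.0511). It passed in 4 of 11 settings, including with upper quartile scaling (adjusted p = 0.0327) and without eV library 1 (adjusted p = 0.00134) or 2 (adjusted p = 0.000191). DROSHA counts per DGCR8 count were 1.61 and 1.99 with the empty vector against 2.83, 3.29 and 2.94 with TAF1C. Such a ratio is not corrected for gene length, so it is read only between libraries. The TAF1C values of the ratio lay further from the eV values than these lay from each other, and the ratio itself was not tested.

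XPO5 (ENSG00000124571) exports precursor hairpins with RAN. It was at 148 and 221 CPM with the empty vector and at 171, 183 and 165 CPM with TAF1C. The TAF1C values fell between the eV values, which differed 1.496-fold from each other. The log2 fold change was -0.09 ± 0.19 (SE, edgeR adjusted p = 0.724). Its direction rested on which eV library was used, at -0.42 (adjusted p = 2.98e-05) without eV library 1 and 0.19 (adjusted p = 0.0374) without eV library 2.

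DICER1 (ENSG00000100697) makes the cytoplasmic cut. Its normalised read count was 159 and 171 CPM with the empty vector and 106, 121 and 110 CPM with TAF1C. Every TAF1C library lay below both eV libraries. The means were 165.2 ± 8.42 CPM (SD, n = 2) and 112.8 ± 7.68 CPM (SD, n = 3), 1.47-fold lower (log2 fold change -0.55 ± 0.11 (SE), edgeR adjusted p = 0.0144). Other settings gave -0.76 to -0.46, past the threshold in 6 of 11 (adjusted p from 4.23e-08 to 0.266). The call was lost without TAF1C library 1, 2 or 3 (adjusted p = 0.0934, 0.0507 and 0.0893), without the filter (adjusted p = 0.266) and in 1 further setting. The antisense gene DICER1-AS1 overlaps the locus and was counted at 8.70 and 3.21 CPM with the empty vector and 1.02, 1.98 and 1.56 CPM with TAF1C. The sources used here do not say whether counting used strand, so reads of the pair cannot be told apart where they overlap.

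TARBP2 (ENSG00000139546), the RNA-binding partner of DICER1, rose while DICER1 fell. It was at 25.2 and 26.9 CPM with the empty vector and at 38.0, 34.7 and 38.5 CPM with TAF1C, with no overlap. The means were 26.1 ± 1.16 CPM (SD, n = 2) and 37.1 ± 2.08 CPM (SD, n = 3), a 1.42-fold rise (log2 fold change 0.51 ± 0.12 (SE), edgeR adjusted p = 0.0252). Settings other than this one gave 0.30 to 0.60 and passed in 5 of 11 (adjusted p from 0.000198 to 0.254). It was not called without TAF1C library 1, 2 or 3 (adjusted p = 0.126, 0.0754 and 0.126), with library totals (adjusted p = 0.107), without the filter (adjusted p = 0.126) or in 1 further setting. TARBP2 counts per DICER1 count were 0.159 and 0.157 with the empty vector against 0.357, 0.286 and 0.349 with TAF1C. Between the eV libraries this ratio barely moved. DROSHA counts per DICER1 count were 0.937 and 1.02 against 1.96, 1.90 and 1.95. MAP3K12 overlaps TARBP2 and was at 51.4 and 34.0 CPM with the empty vector and 48.7 to 50.3 CPM with TAF1C, with no shift of the same kind.

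AGO2 (ENSG00000123908), the Argonaute that can itself cut a target, measured 92.7 and 94.2 CPM with the empty vector and 81.8, 81.8 and 88.1 CPM with TAF1C. The groups did not overlap but the difference was small (log2 fold change -0.16 ± 0.10 (SE), edgeR adjusted p = 0.267). It passed only with library totals (-0.36, adjusted p = 0.0424) and without eV library 1 (-0.23, adjusted p = 0.0229).

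The 3 TNRC6 genes encode related scaffolds that bind Argonaute, and their mRNAs did not move alike. TNRC6A (ENSG00000090905) was at 160 and 148 CPM with the empty vector and 153, 161 and 150 CPM with TAF1C, overlapping throughout. Its log2 fold change was 0.01 ± 0.11 (SE, edgeR adjusted p = 0.964), and its sign turned with library totals (-0.21) and upper quartile scaling (-0.06). TNRC6B (ENSG00000100354) was at 242 and 212 CPM with the empty vector and 186, 200 and 191 CPM with TAF1C. Those groups did not overlap, and the log2 fold change of -0.24 ± 0.12 (SE) did not pass (edgeR adjusted p = 0.161), except without eV library 1 (-0.21, adjusted p = 0.0205) or 2 (-0.36, adjusted p = 0.000104).

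TNRC6C (ENSG00000078687) was counted at 102 and 56.6 CPM with the empty vector, from 2776 and 1605 counts. In the TAF1C libraries it was at 1.19, 1.87 and 1.56 CPM, from 42, 64 and 51 counts. Both eV libraries were thus high, although eV library 2 held 0.553 of the level of eV library 1, and all 3 TAF1C libraries were near the filter minimum. The means were 79.4 ± 32.3 CPM (SD, n = 2) and 1.54 ± 0.34 CPM (SD, n = 3), 51.6-fold lower (log2 fold change -5.69 ± 0.34 (SE), edgeR adjusted p = 0.000378). All 11 other settings passed the threshold, with log2 fold changes of -6.09 to -5.26 and adjusted p from 8.49e-57 to 0.00862. TNRC6C counts per TNRC6A count went from 0.641 and 0.382 to 0.00776, 0.0116 and 0.0104. TMC6, which overlaps the TNRC6C locus, was higher in the TAF1C libraries, at 18.6 and 26.6 CPM against 36.4, 31.4 and 34.8 CPM.

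TNRC6C fell along the same split of libraries as the photoreceptor and neuronal markers given above. In 34.4% of the 18402 tested genes every TAF1C library was likewise below both eV libraries. IMPG2, the photoreceptor marker with the highest mean, was at 862 and 675 CPM with the empty vector and at 0.763, 0.525 and 0.981 CPM with TAF1C. SYP, the leading neuronal marker, was at 136 and 143 CPM against 1.64, 2.68 and 2.42 CPM. The part of such cells or programmes in the TNRC6C result was not tested. The 5 protein coding genes whose centred log2 CPM profile lay closest to TNRC6C over the 5 libraries, a search made after its values were seen, were TOX3, KIAA1456, PCDHA3, SH3GL2 and LIN7A. Their Euclidean distances were 0.325 to 0.523, out of 14331 genes compared. TOX3, the closest, was at 16.2 and 7.44 CPM with the empty vector and 0.0848, 0.175 and 0.153 CPM with TAF1C.

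**Figure D2:**
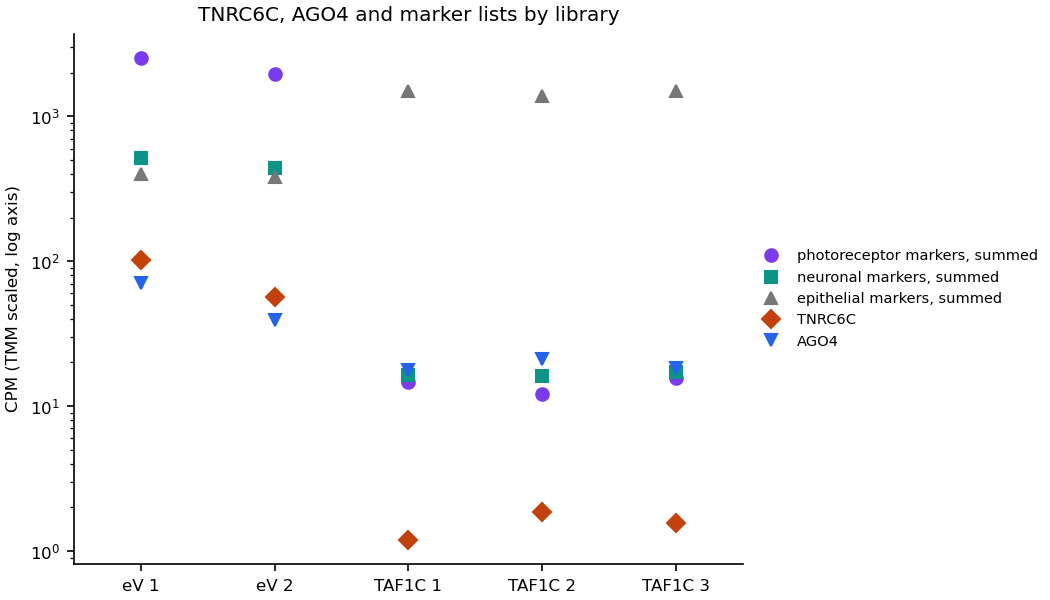
Normalised read count (CPM, log axis) in each of the 5 long RNA libraries for TNRC6C, AGO4 and the summed photoreceptor, neuronal and epithelial markers. TNRC6C, AGO4 and the photoreceptor and neuronal sums are higher in both empty vector libraries than in any TAF1C library, and the epithelial sum is lower.

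The 250 bases before 1 annotated start are shown for TNRC6C and DICER1, since these are the genes that fell. They come from RefSeq on GRCh38.p14, while the count tables were made on hg19. Of several starts, the window with the most CpG was taken, and 9 of the 10 genes had a window. Capitals mark matches on either strand to CACGTG (an E-box), TAATCC (bound by OTX2 and CRX) and CCAAT, 3 motifs chosen after the values were seen that do not overlap one another. The TNRC6C window, chr17:77958453-77958702 on the + strand, held 1 CACGTG and 2 CCAAT (one as its reverse complement). The DICER1 window, chr14:95157530-95157779 on the - strand, held 1 TAATCC (as its reverse complement) and 1 CCAAT.
TNRC6C: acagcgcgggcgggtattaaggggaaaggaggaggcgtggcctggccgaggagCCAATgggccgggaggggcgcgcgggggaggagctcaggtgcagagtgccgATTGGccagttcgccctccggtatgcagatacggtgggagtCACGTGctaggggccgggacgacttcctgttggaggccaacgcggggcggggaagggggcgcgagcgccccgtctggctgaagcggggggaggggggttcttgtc
DICER1: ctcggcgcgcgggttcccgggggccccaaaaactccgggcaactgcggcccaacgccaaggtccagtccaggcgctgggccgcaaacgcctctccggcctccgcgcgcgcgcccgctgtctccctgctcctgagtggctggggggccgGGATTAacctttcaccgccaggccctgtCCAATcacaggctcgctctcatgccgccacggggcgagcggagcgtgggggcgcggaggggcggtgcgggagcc

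Over windows of 300 bases, which also take 50 bases after the start, CACGTG was in 1, TAATCC in 1 and CCAAT in 6 of the 9 windows with the most CpG. Across 35116 such RefSeq windows, chosen without regard to CpG, the shares were 7.26%, 6.36% and 34.61%. A match describes letters only and no binding was measured here.

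LIN28B (ENSG00000187772) was at 15.7 and 22.8 CPM with the empty vector and 14.5, 13.1 and 14.2 CPM with TAF1C. The groups did not overlap, but the lower eV library lay close to the TAF1C libraries. The log2 fold change of -0.47 ± 0.21 (SE) did not pass (edgeR adjusted p = 0.128). It was -0.78 (adjusted p = 1.16e-05) without eV library 1, -0.20 (adjusted p = 0.218) without eV library 2 and -0.65 (adjusted p = 0.0317) with library totals. The 5 protein coding genes nearest to LIN28B by Euclidean distance of centred log2 CPM over the 5 libraries were STK40, JAG2, RNPEP, PREX1 and WBP2, at distances of 0.05 to 0.10 among 14331 genes. STK40, the closest, was at 27.5 and 40.3 CPM against 24.5, 22.7 and 24.2 CPM. The antisense gene LIN28B-AS1 overlaps the locus and was at 1.55 and 1.09 CPM with the empty vector and 0.0566, 0 and 0.0307 CPM with TAF1C. As for DICER1, reads of the pair cannot be told apart where they overlap. The related LIN28A was too low to test, at 2.54 and 0.493 CPM with the empty vector and 0.735, 0.350 and 0.981 CPM with TAF1C.

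**Figure D3:**
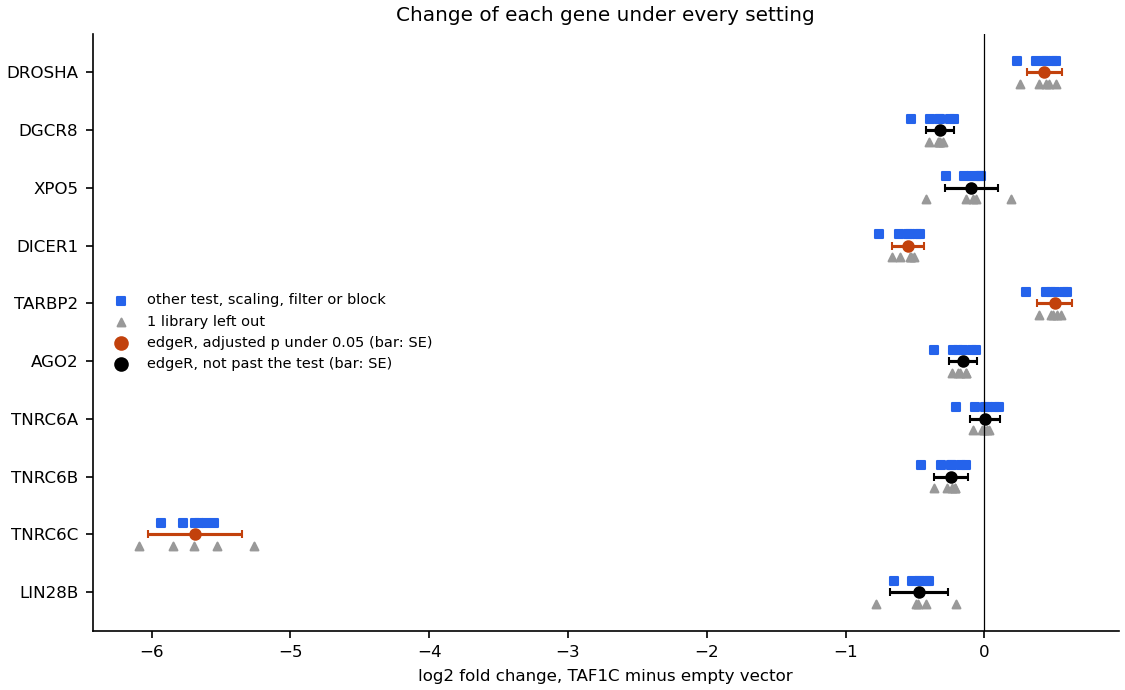
Log2 fold change (TAF1C minus empty vector) of each of the 10 genes with its SE (circles), under other tests, scalings, filters and the replicate block (squares) and with 1 library left out (triangles). TNRC6C stays between -6.09 and -5.26, XPO5 and TNRC6A lie on both sides of 0, and the other 7 genes keep their sign.

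Around these genes, 70 further genes of the pathway were listed, of which 69 were tested. Of them 9 rose, 7 fell and 53 did not pass, with a median log2 fold change of 0.23. Shares of 9 and 7 in 69 are near or below the 15.9% and 22.6% of all genes. Leaving out TAF1C library 1, 2 or 3 gave 4 raised each time and 3, 3 and 2 lowered, in fits where calls over all genes dropped too.

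Among the 13 Microprocessor cofactors, such as the helicases DDX5 and DDX17, none was called by edgeR or DESeq2 and 1 was higher at an unadjusted p under 0.05. None of the 3 export genes was called by edgeR, 1 was higher at an unadjusted p under 0.05, and DESeq2 called 2 raised. Over all 18402 tested genes edgeR called 38.5%, 3867 were higher at an unadjusted edgeR p under 0.05, and DESeq2 raised 3678 and lowered 4400. RAN, the GTPase that XPO5 needs, was named after its values were seen. It was at 186 and 377 CPM with the empty vector and 453, 494 and 467 CPM with TAF1C (edgeR adjusted p = 0.103).

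Of 10 Dicer partners and Argonaute loading factors 4 rose, beside 15.9% of all tested genes. The list's HSP90AA1, HSP90AB1 and PTGES3, chaperones or co-chaperones named after their values were seen, did not pass (edgeR adjusted p = 0.0562, 0.403 and 0.0686). FKBP5, an HSP90 co-chaperone and a classic glucocorticoid-induced gene, was at 225 and 237 CPM with the empty vector and 605, 641 and 603 CPM with TAF1C. That is a 2.67-fold rise (log2 fold change 1.41 ± 0.13 (SE), edgeR adjusted p = 0.00126), past the threshold in all 11 other settings. AHSA1, FKBP4 and HSPA8, named after their values were seen, rose by 0.85, 0.89 and 0.996 on the log2 scale, but each lost its call without TAF1C library 1, 2 or 3. The Dicer partner PRKRA did not pass, at 39.8 and 51.0 CPM against 36.2, 37.4 and 38.2 CPM (log2 fold change -0.29, edgeR adjusted p = 0.163).

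The other Argonautes did not move alike either. AGO1 was at 121 and 156 CPM with the empty vector and 141, 140 and 141 CPM with TAF1C, inside the eV range (log2 fold change 0.02, edgeR adjusted p = 0.917). Its sign turned with library totals (-0.17), upper quartile scaling (-0.04) and without eV library 1 (-0.22, adjusted p = 0.0175), against 0.19 (adjusted p = 0.0427) without eV library 2. AGO3 was at 83.3 and 94.3 CPM against 57.6, 58.0 and 56.1 CPM, below both eV libraries (log2 fold change -0.63 ± 0.11 (SE), edgeR adjusted p = 0.00784). That call was lost without TAF1C library 1 (adjusted p = 0.0571) or 3 (adjusted p = 0.0588), without the filter (adjusted p = 0.153) and in 1 further setting. AGO4 was at 70.5 and 39.1 CPM against 17.6, 21.0 and 18.4 CPM, 2.88-fold lower (log2 fold change -1.53 ± 0.26 (SE), edgeR adjusted p = 0.00800). It held in all 11 other settings, and like TNRC6C it was higher in eV library 1 than in eV library 2. AGO4 also fell along the split of the neuronal and photoreceptor markers, a split shared by 34.4% of all tested genes. The part of such cells was not tested.

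Among 8 tested genes listed for let-7 precursor tailing, 2 rose, 1 fell and 5 did not pass. Over all tested genes 15.9% rose and 22.6% fell. Of the list, 2 enzymes that add uridines to precursor and mature RNA ends moved in opposite directions. TUT1 and PAPD4, named after their values were seen, did not pass (edgeR adjusted p = 0.1245 and 0.6417). ZCCHC11 (TUT4), which LIN28 recruits to let-7 precursors, was at 172 and 101 CPM with the empty vector and 64.5, 66.5 and 60.3 CPM with TAF1C (log2 fold change -1.10 ± 0.23 (SE), edgeR adjusted p = 0.0142). Its paralog ZCCHC6 (TUT7) was at 47.1 and 53.1 CPM against 97.9, 102 and 93.2 CPM (log2 fold change 0.96 ± 0.11 (SE), edgeR adjusted p = 0.00258). Neither pair of groups overlapped, and ZCCHC6 counts per ZCCHC11 count went from 0.273 and 0.523 to 1.52, 1.53 and 1.55. ZCCHC6 passed in all 11 other settings, and ZCCHC11 was lost without TAF1C library 1, 2 or 3 (adjusted p = 0.0636, 0.0676 and 0.0689). TRIM25, an RNA-binding ubiquitin ligase named after its values were seen, rose by 1.30 on the log2 scale and also held in all 11.

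Of 28 effectors that TNRC6 brings to a target, 3 rose, 4 fell and 21 did not pass. Over all tested genes the shares were 15.9% raised and 22.6% lowered. DCP2, the decapping enzyme, was at 147 and 193 CPM with the empty vector and 87.3, 90.2 and 85.1 CPM with TAF1C (log2 fold change -0.96 ± 0.14 (SE), edgeR adjusted p = 0.00537), and held in all 11 other settings. LIMD1, a scaffold that links Argonaute to the cap complex, was at 33.5 and 35.7 CPM against 57.1, 59.0 and 54.7 CPM (log2 fold change 0.72 ± 0.11 (SE), edgeR adjusted p = 0.00594), and held in 10 of 11. The other called effectors, named after their values were seen, were PABPC1 and CNOT11, which rose, and the deadenylase subunits CNOT6 and PAN2 and the decapping cofactor DCP1B, which fell. Each of these 5 lost its call without TAF1C library 2 or 3, and each but DCP1B without TAF1C library 1. None of 4 turnover factors was called by edgeR, 2 were higher at an unadjusted p under 0.05, and DESeq2 called 2 raised. Of all 18402 tested genes, 3867 were higher at an unadjusted edgeR p under 0.05 and DESeq2 raised 3678.

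**Figure D4:**
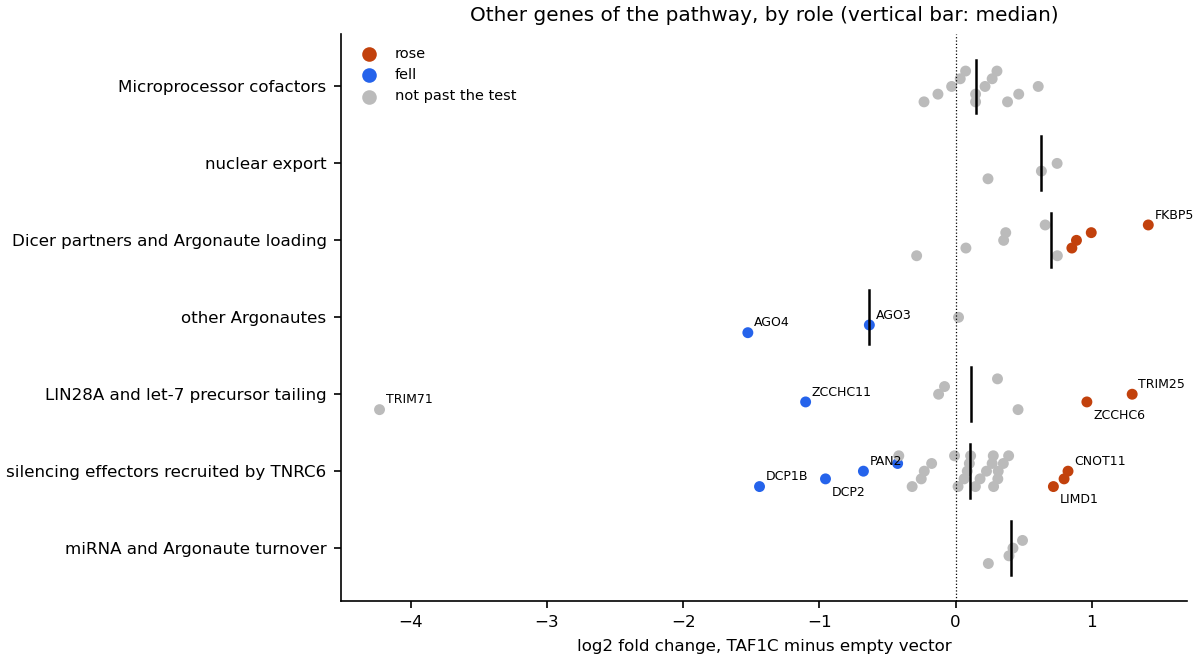
Log2 fold change (TAF1C minus empty vector) of the 69 tested pathway genes by role, each point a gene, with a vertical bar at each role's median. Argonaute loading factors lie mostly above 0 (4 of 10 raised), AGO3 and AGO4 below it, and ZCCHC11 and ZCCHC6 on opposite sides.

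Mature miRNAs tied to these genes were read from the small RNA libraries, where 338 of the 612 listed miRNAs were above 0 in every library and at least 10 in 2 or more. In limma on log2(signal + 1), 71 rose (21%) and 65 fell (19.2%), 40.2% in all, with a median log2 fold change of 0.02. The same pseudocount scale holds for each fold change below. Signal in these tables was taken to have been divided by 1 factor per library. Its sums were 17820818 and 18160854 with the empty vector against 21407122, 22035505 and 20493894 with TAF1C. Scaling every library to the same sum gave 40 raised and 127 lowered, so the direction of small changes rests on the scaling.

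The let-7 family shares the seed gagguag (bases 2 to 8, in capitals), and its members that fell are shown with let-7a, the most abundant, which did not. Sequences are from RefSeq on GRCh38.p14.
let-7a-5p: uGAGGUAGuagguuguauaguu
let-7f-5p: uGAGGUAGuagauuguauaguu
let-7g-5p: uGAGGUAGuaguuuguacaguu
let-7i-5p: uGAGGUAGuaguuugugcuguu
miR-98-5p: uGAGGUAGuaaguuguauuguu

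Of 7 tested let-7 miRNAs 4 fell, beside 19.2% of all tested miRNAs. The median log2 fold change was -0.28 over the 7, against 0.02 for all tested miRNAs. Also looked for, let-7b and let-7d were not found among the 612 listed miRNAs. miR-98-5p was at 23719 and 24067 with the empty vector against 13543, 15052 and 15068 with TAF1C, 1.64-fold lower (log2 fold change -0.72 ± 0.07 (SE), limma adjusted p = 6.29e-05). All TAF1C libraries lay below both eV libraries, and the call held in all 9 other settings. let-7i-5p was at 530220 and 566267 against 366973, 445306 and 428987 (log2 fold change -0.41, limma adjusted p = 0.00493). let-7f-5p (log2 fold change -0.31, limma adjusted p = 0.0122) and let-7g-5p (-0.28, limma adjusted p = 0.0138) fell less. Both were lost without small RNA eV library 2 (adjusted p = 0.109 and 0.124). Without the filter on low signal, let-7f-5p, let-7g-5p and let-7i-5p lost their calls (adjusted p = 0.0850, 0.0822 and 0.0622). The other 3 did not pass, let-7a-5p at 0.14, let-7c-5p at 0.03 and let-7e-5p at -0.09. With libraries scaled to the same sum, let-7a-5p and let-7c-5p turned to -0.11 and -0.22. That scaling also lowered let-7e-5p (-0.33, limma adjusted p = 0.00435). Without small RNA TAF1C library 1, let-7a-5p was raised (0.20, limma adjusted p = 0.00207). LIN28B mRNA was not called in the long RNA libraries of the same labels.

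LIN28 proteins are known to bind GGAG in the loop of let-7 precursors. Of 12 let-7 and miR-98 hairpins in RefSeq, 9 held GGAG and 3 did not. Of the tested miRNAs whose hairpins all held GGAG, let-7f, let-7g and let-7i fell, and let-7c and let-7e did not. The let-7a hairpins were of both kinds, and let-7a did not fall. The hairpins of let-7g (GGAG in capitals) and of miR-98 (no match) are printed as examples of each kind, both from miRNAs that fell.
let-7g hairpin: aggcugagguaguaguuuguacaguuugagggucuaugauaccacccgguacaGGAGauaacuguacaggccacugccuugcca
miR-98 hairpin: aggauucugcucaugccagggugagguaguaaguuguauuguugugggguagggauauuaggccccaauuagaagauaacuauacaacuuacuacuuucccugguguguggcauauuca

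miR-320 precursors are capped transcripts made without a Microprocessor cut. miR-320a-5p, the arm as named in the tables and not checked, was at 43917 and 46578 with the empty vector against 65993, 71450 and 68732 with TAF1C, with no overlap (log2 fold change 0.60 ± 0.07 (SE), limma adjusted p = 0.000103). miR-320b rose by 0.54 (limma adjusted p = 0.00101) and miR-320c by 0.52 (limma adjusted p = 0.00244). Of all tested miRNAs, 21% rose. miR-320b and miR-320c differ only in their last bases and the treatment of multiply matching reads is not given. Their rises are therefore not read as separate. miR-320a-5p and miR-320b held in all 9 other settings, at 0.36 and 0.30 with libraries scaled to the same sum, and miR-320c was lost there (0.27, adjusted p = 0.0604). miR-320d, miR-320e and miR-484 were listed at 0 in at least 1 library and were not tested. miR-1229-3p, a mirtron that splicing rather than DROSHA releases, did not pass (log2 fold change 0.27, limma adjusted p = 0.197).

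miR-9-5p and the miR-125 family are known to target LIN28 mRNAs, and miR-9 is a neural miRNA shown here because it fell most among the miRNAs listed (seed in capitals).
miR-9-5p: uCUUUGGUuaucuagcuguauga

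Its signal was 14872 and 16092 with the empty vector against 342, 454 and 357 with TAF1C, 40.3-fold lower (log2 fold change -5.34 ± 0.13 (SE), limma adjusted p = 3.77e-09), and past the threshold in all 9 other settings. It fell between libraries of the same labels as TNRC6C and the neuronal markers, whose part was not tested. Of all tested miRNAs, 19.2% fell. miR-125a-5p was at 223589 and 208230 against 180680, 187660 and 177324 (log2 fold change -0.25, limma adjusted p = 0.0123), and was lost without small RNA eV library 1 (adjusted p = 0.144) or TAF1C library 3 (adjusted p = 0.0589). miR-125b-5p did not pass (0.03, limma adjusted p = 0.701), and turned to -0.21 with libraries scaled to the same sum.

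miR-107, and miR-103 with the same seed, are known to target DICER1. Of the 3 entries tested none was called, and as named only miR-107 has that seed (GCAGCAU), since both miR-103a entries are named as 5p arms, with the seed GCUUCUU. miR-107 was at 31861 and 29426 with the empty vector against 32570, 28350 and 29167 with TAF1C (log2 fold change -0.03, limma adjusted p = 0.785), so the groups overlapped. miR-103a-1-5p and miR-103a-2-5p, whose arm names were not checked, had nearly the same values as each other and log2 fold changes of 0.09 (limma adjusted p = 0.235 and 0.227), which turned to -0.15 with libraries scaled to the same sum. With that scaling miR-107 was lowered (-0.27, adjusted p = 0.0255).

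**Figure D5:**
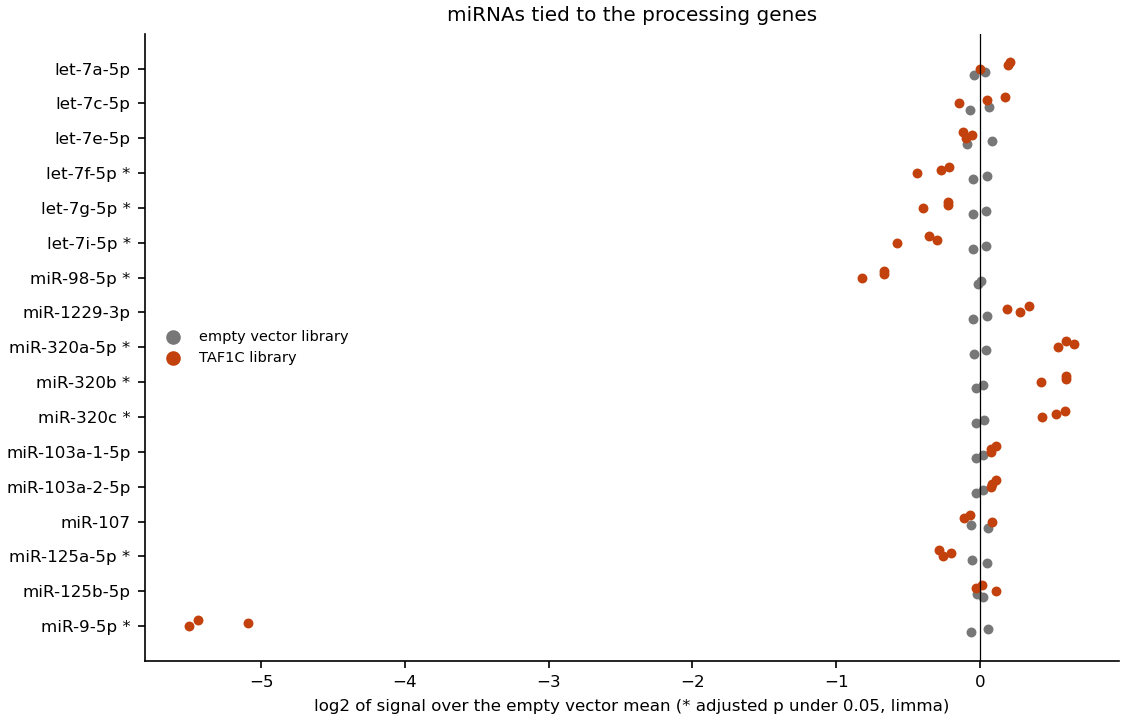
Log2 of each library's signal over the empty vector mean for 17 listed miRNAs, with empty vector libraries in grey and TAF1C libraries in orange, and * at an adjusted p under 0.05 in limma. miR-9-5p lies near -5.34, the 3 miR-320 entries above 0.4 in every TAF1C library, and miR-98-5p lowest of the let-7 family.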

How the data were processed

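Per the submitters' processing notes, hg19 was the build, and Cufflinks 2.2.1, DESeq2, HISAT2, Bowtie2 2.2.4 and Trimmomatic 0.36 are listed with no role for each. The annotation, strandedness and treatment of multiply matching reads are not given in the sources used here. The long RNA tables deposited by the authors hold values for 57773 gene rows, taken here as raw counts. The RNA was ribo-depleted per the labels' protocols, and rows of 1 symbol were summed here. The miRNA tables deposited by the authors hold signal, taken here to have been divided by 1 factor per library. The piRNA tables were not used.

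Counts were tested with the edgeR 4.0.16 quasi-likelihood test in R 4.3.3 (TMM, 18402 genes with 1 CPM or more in at least 2 libraries, no covariate). miRNA signal was tested with limma 3.58.1 with a trend on log2(signal + 1), for the 338 miRNAs above 0 in all libraries and at least 10 in 2. P-values were two-sided and Benjamini-Hochberg adjusted over all features, at 0.05. The scripts were tested on simulated data in which both groups had the same spread. That test does not cover the wider spread between the long RNA eV libraries. DESeq2 1.42.0, 2 scalings, no filter, edgeR's exact test, the replicate block and leaving out each library were alternatives.

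The genes, lists and tests were chosen with earlier results of these data known. Named were the 10 genes; AGO1, AGO3, AGO4, PRKRA and LIN28A; the passing gene with the smallest adjusted p per direction of each other role; the marker with the highest mean of a list; the tested listed miRNAs; and the 5 genes nearest LIN28B. Exceptions are named as such. Fibroblast markers (led by PDGFRB) summed to 83.0 and 24.0 CPM with the empty vector against 30.9 to 45.4 CPM, with none of 7 called by edgeR. Endothelial markers (KDR) summed to 74.3 and 16.6 against 29.2 to 30.2 CPM and haematopoietic markers (HBB) to 47.8 and 35.6 against 23.9 to 28.2 CPM, with 1 lowered in each. TNRC6C with TAF1C rests on 42 to 64 counts per library, and each other value of the 10 genes on 426 to 7905. Plots used matplotlib 3.10.9, and tables pandas 2.3.3 in Python 3.11.15.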

Additional observations from a re-analysis of the deposited data

How the results depend on the processing

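Without the filter on low counts, 1817 genes rose in all, and of the 10 genes described none rose and 1 fell. With library totals none of the 10 rose and 5 fell, and 12 pathway genes fell. Unadjusted p under 0.05 marked 1 of the 10 as higher under each of those settings. DESeq2 raised 16 pathway genes. The replicate block (numbers shared by 2 libraries of each group) gave 1425 raised and 2662 lowered genes, none raised and 1 lowered of the 10 (none higher at an unadjusted p under 0.05), and 3 lowered pathway genes. With the block edgeR no longer called DROSHA, DICER1, TARBP2, AGO3 and LIMD1 (adjusted p = 0.280, 0.155, 0.254, 0.0923 and 0.0552), nor HSPA8, PABPC1, CNOT6, PAN2 and DCP1B (0.242, 0.163, 0.311, 0.0849 and 0.0755). The labels do not say that a number pairs libraries, and deviations of same-numbered libraries correlated at 0.04 and 0.14 over genes. With miRNA libraries scaled to the same sum, 40 rose and 127 fell. The causes were not tested.

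Leaving out 1 library in turn gave 1058 to 5966 raised and 1960 to 5665 lowered genes, 0 to 3 raised and 1 to 7 lowered of the 10, 4 to 42 raised and 2 to 15 lowered pathway genes, and 52 to 90 raised and 41 to 88 lowered miRNAs, with 41 lowered without small RNA eV library 1. Signs turned for XPO5 (-0.42 to 0.19 over left-out libraries), AGO1 (-0.172 library totals, -0.0389 upper quartile, -0.218 to 0.185 over left-out libraries) and TNRC6A (-0.207, -0.0641 and -0.0786 to 0.0301). With the same sum they turned for let-7a-5p (-0.108), let-7c-5p (-0.216), miR-103a-1-5p (-0.154), miR-103a-2-5p (-0.152) and miR-125b-5p (-0.209). Over left-out libraries let-7c-5p ran from -0.0459 to 0.115, miR-107 from -0.0906 to 0.0266 and miR-125b-5p from -0.0040 to 0.064, and let-7c-5p was -0.0459 with the replicate block. The planned count test on recovered miRNA reads was not run, since the smallest values are several steps.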
